A study of Mus musculus with 67 samples.

Results

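Smooth muscle cells of the mouse aorta were cultured and sequenced cell by cell, and the passage 1 cells were divided here by their RNA for Mki67 and Top2a. The classes were chosen by these measured values: a cell was called marker-positive where either gene had a deposited value of at least 10, and marker-negative where both were below 10. The values are read counts per gene divided by a scaling factor for each cell, called normalised counts below. Of the 22 passage 1 cells among 67 cells in all, 16 were marker-positive (72.7%, exact 95% interval 49.8 to 89.3) and 6 were marker-negative (27.3%, 10.7 to 50.2). These intervals cover counting error only, as if each cell were an independent draw, and leave out variation between animals or cultures. At passage 2, the same rule gave 10 marker-positive and 35 marker-negative cells. All cells came from the descending aorta of male C57Bl6 mice aged 3 to 4 months, with no genetic change or drug named in the labels. Fresh cells grew for 5 days in DMEM with 10% serum and 1% antibiotics before they were trypsinised, and passage 2 was subcultured from them. Each cell was captured on a Fluidigm C1 instrument and made into its own Nextera XT library. No animal or culture is named, so the passage 1 cells count as 1 sample. No test was therefore made between the classes, and each SD below describes the spread between cells.

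In a dividing cell, replication genes are transcribed at the start of S phase and mitotic genes later, in G2 and M phase. Mki67 coats mitotic chromosomes, and Top2a untangles replicated DNA strands. RNA of both genes builds up through S phase and peaks in G2 and M phase, so a cell in early S phase can have little of either. Smooth muscle cells of the adult aorta seldom divide in the animal, and in culture with serum they re-enter the cell cycle and lose part of their contractile gene expression.

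The promoters of the genes that set the classes are shown because CCAAT boxes, bound by NF-Y, and TTTGAA elements, bound by the DREAM and MuvB complexes, are known marks of late cell cycle genes. Each line holds the 250 bases before the gene's start, 5′ to 3′ on the gene's strand, from RefSeq (GRCm38.p6), at chr7:135716380-135716629 on the minus strand for Mki67 and chr11:99024190-99024439 on the minus strand for Top2a. Capitals mark CCAAT or TTTGAA on either strand (read as ATTGG or TTCAAA on the other strand), and no 2 matches overlap.
Mki67: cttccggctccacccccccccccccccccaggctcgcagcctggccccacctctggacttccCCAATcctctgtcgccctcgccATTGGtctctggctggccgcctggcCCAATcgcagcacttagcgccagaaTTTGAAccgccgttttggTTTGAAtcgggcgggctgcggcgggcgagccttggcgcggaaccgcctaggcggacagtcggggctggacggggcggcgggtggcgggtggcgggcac
Top2a: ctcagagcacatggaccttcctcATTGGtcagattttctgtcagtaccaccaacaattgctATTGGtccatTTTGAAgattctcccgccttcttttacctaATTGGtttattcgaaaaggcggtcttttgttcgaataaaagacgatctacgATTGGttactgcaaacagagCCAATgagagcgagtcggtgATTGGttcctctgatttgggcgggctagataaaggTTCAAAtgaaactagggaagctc
The Mki67 window held 3 CCAAT and 2 TTTGAA matches, and the Top2a window held 6 and 2. Among 32851 promoter windows of the same length, 33.8% held at least 1 CCAAT match, 2.79% held at least 3, 0.0578% held at least 6, and 16% held a TTTGAA match. These matches are a description of the letters, not evidence of binding in these cells.

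Mki67 ran from 0 through a median of 295 to 1085 normalised counts in the 16 marker-positive cells, and its highest value in the 6 marker-negative cells was 0.706. Top2a ran from 0 through 324 to 1794 in marker-positive cells and from 0.706 through 2.73 to 6.63 in marker-negative cells. These values chose the classes. Mki67 reached 10 in 15 cells and Top2a in 13, with 12 cells at that level for both. Cells 4, 9 and 15 reached it for Mki67 only, and cell 21 for Top2a only. The cells just inside the threshold were cell 9, with 34.9 for Mki67, cell 4, with 52.9 for Mki67, and cell 21, with 57.0 for Top2a. Just outside were cell 17, with 6.63 for Top2a, and cell 7, with 6.39 for Top2a.

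The name "not cycling" did not hold for all 6 marker-negative cells. Of 43 S phase genes, marker-positive cells had a median of 31 at 10 or more (range 9 to 38), and marker-negative cells had 17.5 (8 to 31). Marker-negative cells 17 and 5 had 31 and 30 of these genes at 10 or more, as many as the typical marker-positive cell. Pcna, the sliding clamp of DNA polymerase, averaged 174 ± 98.0 normalised counts in marker-positive cells (SD, n = 16) and 97.0 ± 92.8 in marker-negative cells (SD, n = 6), where cell 5 reached 259. Of 52 G2 and M phase genes, marker-positive cells had a median of 40.5 at 10 or more (13 to 52) and marker-negative cells had 17 (8 to 23). Marker-positive cell 9 had 9 S phase and 13 G2 and M phase genes at that level, about as few as marker-negative cell 7. The classes are therefore called by their marker genes and not by a cell cycle state.

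**Figure D1:**
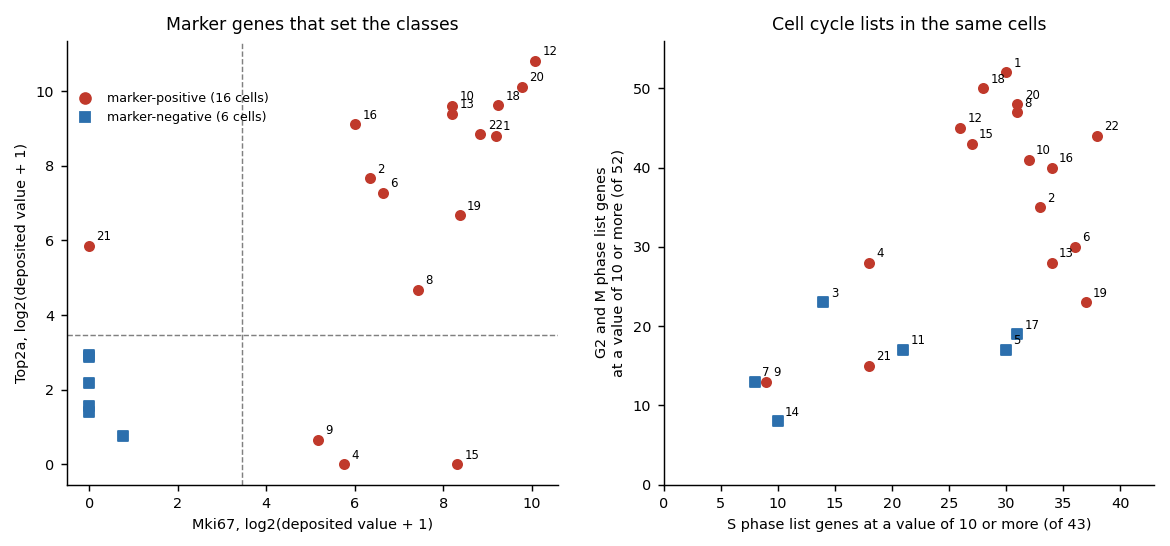
Left, Mki67 against Top2a per cell as log2(normalised count + 1), with the threshold of 10 dashed; right, S phase and G2 and M phase list genes at 10 or more per cell. Marker-positive cells are red circles, numbered by cell in both panels, and marker-negative cells are blue squares, numbered in the right panel only. Marker-negative cells 5 and 17 lie among the marker-positive cells along the S phase axis. No marker-negative cell exceeds 23 G2 and M phase genes.

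Sequencing depth was alike in both classes: marker-positive cells had 817021 to 1561129 reads and marker-negative cells 927254 to 1372041. Genes with a read numbered 4017 to 10733 in marker-positive cells (median 8583) and 7544 to 9036 in marker-negative cells (median 7786.5). Marker-positive cell 21 stood apart with the 4017 genes. Mitochondrially encoded genes took 5.41 ± 0.90% of reads in marker-positive cells (SD, n = 16) and 5.44 ± 0.60% in marker-negative cells (SD, n = 6). None of the 231 pairs of passage 1 libraries held identical values.

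The labelled cell type was checked against marker lists, with at least 3 markers at 10 or more counted as a hit. Smooth muscle markers gave a hit in 11 of 16 marker-positive and 3 of 6 marker-negative cells, but Myh11 and Cnn1, which mark contractile smooth muscle, each reached 10 in 1 cell per class, and Des was 0 in all cells. Their summed level had a median of 589 normalised counts in marker-positive cells (13.04 to 6676) and 522 in marker-negative cells (22.97 to 4246). Fibroblast markers gave a hit in 12 of 16 marker-positive and 2 of 6 marker-negative cells. Their summed level had a median of 849.9 normalised counts in marker-positive cells (2.91 to 2528) and 173 in marker-negative cells (2.83 to 1900). Clec3b was 0 in all cells and Scara5 in all marker-negative cells. Pericyte markers gave a hit in 13 of 16 marker-positive and 4 of 6 marker-negative cells. Their summed level had a median of 356 in marker-positive cells (14.8 to 2446) and 643 in marker-negative cells (73.5 to 1336), with Higd1b at 0 in all cells. Endothelial markers gave a hit in marker-positive cells 12, 13 and 16 and marker-negative cells 11 and 14. The summed endothelial level had a median of 7.17 in marker-positive cells (1.27 to 5691) and 41.1 in marker-negative cells (1.47 to 2659), with Cldn5 at 0 in all cells. The macrophage, lymphocyte, adipocyte, Schwann, erythroid, striated muscle, and mesothelial and epithelial lists gave no hit in either class.

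The question for the rest of the transcriptome was which genes outside the cell cycle differed between the classes. The filter on low values asked for a class mean of 10 or more, with reads in 25% or more of that class, and 8580 genes passed it, 8144 of them outside the cell cycle. The log2 ratio is log2(mean + 1) in marker-positive cells minus that in marker-negative cells, a scale on which the differences of weakly expressed genes come out too small. A gene was past the fold where the ratio was at least 2-fold with all cells and with each cell left out in turn, and where the direction held in at least 70% of the 96 pairs of a marker-positive and a marker-negative cell. Of the 8144 genes, 277 were past the fold higher in marker-positive cells (3.4%) and 122 lower (1.5%). Of the 436 cell cycle genes kept, 112 were higher (25.7%) and 1 was lower (0.229%). The lower one was Pttg1, which encodes securin and was named after its values were seen. It had 15.46 ± 12.87 normalised counts in marker-positive cells and 64.4 ± 62.5 in marker-negative cells (SD, n = 16 and 6). Over all 8580 genes the shares were 4.53% higher and 1.43% lower. No gene, Mki67 and Top2a included, had classes that did not overlap. The median log2 ratio was 0.02 over genes outside the cell cycle and 1.29 over cell cycle genes. Without the 5 cells with an endothelial hit, which left 13 marker-positive and 4 marker-negative cells, 379 genes outside the cell cycle were past the fold higher and 213 lower. These included 180 (65%) of the 277 and 65 (53.3%) of the 122. Without marker-negative cells 5 and 17 the counts were 446 and 196, with 199 (71.8%) of the 277 and 63 (51.6%) of the 122 among them.

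The cell cycle lists show how the split worked, and since they follow the genes that chose the classes they are a description. Of 51 G2 and M phase genes kept, 29 were past the fold higher and none lower, with a median log2 ratio of 2.99. Cenpf, a kinetochore protein, ran from 0.781 through 48.0 to 1181 in marker-positive cells and from 0 through 0.672 to 0.820 in marker-negative cells. Only 1 marker-positive cell fell within the marker-negative range of Cenpf. Ckap2l, a spindle protein, ran from 0 through 210 to 1040 in marker-positive cells and reached at most 0.706 in marker-negative cells. Of 42 S phase genes kept, 13 were past the fold higher and none lower, with a median of 1.55 that became 3.24 without marker-negative cells 5 and 17. Tk1, thymidine kinase, ran from 1.75 through 127 to 289 in marker-positive cells and from 0.706 through 7.66 to 35.3 in marker-negative cells. For Rrm2, the small subunit of ribonucleotide reductase, the ranges were 5.82 through 452 to 1650 in marker-positive cells and 1.41 through 4.76 to 803 in marker-negative cells, so these overlapped widely.

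Insulin-like growth factor 1 (Igf1, ENSMUSG00000020053, chromosome 10, 87858265 to 87937042, GRCm38), a secreted mitogen, had the highest ratio outside the cell cycle. It ran from 0 through a median of 67.5 to 812 normalised counts in marker-positive cells and was 0 in all 6 marker-negative cells. In reads, that is 3998 in marker-positive cells, or 208 RPM, where RPM sets each class's reads to an equal library total (exact 95% interval 201 to 214, counting error only). Marker-negative cells had 0 reads, which allows up to 0.420 RPM at 3 reads over the class. Igf1 was thus at least 494-fold higher in RPM in marker-positive cells. It had a read in 12 of 16 marker-positive cells and reached 10 in 9. All 9 of these cells had a fibroblast hit, out of 12 such marker-positive cells, and none of the 4 marker-positive cells without a hit reached 10. Both marker-negative cells with a fibroblast hit had 0. The part of fibroblast-like expression in the Igf1 difference was not tested. With the classes cut on Top2a alone, which moved cells 4, 9 and 15 to the negative class, the log2 ratio of Igf1 was 1.16, against 7.51 with both genes.

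The Igf1 receptor and a binding protein were looked up after the Igf1 values were seen. Igf1r averaged 19.34 ± 23.05 normalised counts in marker-positive cells and 8.42 ± 11.2 in marker-negative cells (SD, n = 16 and 6), and was higher in 63.5% of pairs, below the 70% set. Igfbp3 had a read in 5 marker-positive and 0 marker-negative cells. Neither was past the fold.

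Mns1, named as a meiotic nuclear protein and a component of cilia (chromosome 9, 72438011 to 72462025), ran from 0 through 29.4 to 303 in marker-positive cells and was 0 in all marker-negative cells. Mns1 had 1356 reads in marker-positive cells and 0 in marker-negative cells, at least 168-fold higher in RPM in marker-positive cells, and 12 of 16 marker-positive cells reached 10. Nrm, the inner nuclear membrane protein nurim (chromosome 17, 35861318 to 35865402), ran from 0 through 20.01 to 217 in marker-positive cells and was 0 in all marker-negative cells. With 954 reads in marker-positive cells and 0 in marker-negative cells, Nrm was at least 118-fold higher in RPM in marker-positive cells. Smchd1, a chromatin protein needed for silencing on the inactive X chromosome, was spread most evenly, from 0 through 66.4 to 407 in marker-positive cells and from 0 through 1.99 to 9.10 in marker-negative cells. Its log2 ratio was 4.87 (4.65 to 5.30 with each cell left out), and 15 of 16 marker-positive cells lay above all marker-negative cells. The remaining marker-positive cell, cell 21, had 0. With Top2a alone, Mns1 turned to a log2 ratio of -0.84.

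Man1a, a Golgi mannosidase that trims N-glycans, ran from 0 through 25.6 to 466 in marker-positive cells and from 0 through 0.351 to 7.15 in marker-negative cells. Its log2 ratio was 5.38 (5.00 to 6.23 with each cell left out) and was 0.92 with Top2a alone. Pigc, a subunit of the enzyme that starts GPI anchor synthesis, had 961 reads in marker-positive cells and 1 in marker-negative cells, a ratio in RPM of 357 (counting interval 63.8 to 14098). The log2 ratio of Pigc was 5.25 with both genes and 1.36 with Top2a alone. Zdhhc16, a palmitoyltransferase, ran from 0 through 28.6 to 215 in marker-positive cells and from 0 through 0 to 3.19 in marker-negative cells. Zdhhc16 turned to -0.88 with Top2a alone, against a log2 ratio of 4.80 with both genes.

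The other 5 of the 12 highest genes were mixed in kind. Mdfic, which binds MyoD family factors, had 744 reads in marker-positive cells and 1 in marker-negative cells, a ratio in RPM of 276 (49.4 to 10918). Marker-positive cells ran from 0 to 218 normalised counts of Mdfic. Cell 8 held 302 of the 744 reads, and the log2 ratio of 4.97 was 4.35 without that cell. The noncoding RNA B230354K17Rik had 857 reads in marker-positive cells and 2 in marker-negative cells, a ratio in RPM of 159 (43.9 to 1315). Its log2 ratio of 5.01 was 1.29 with Top2a alone. Marker-positive cells ran from 0 to 284 normalised counts of this RNA. Cells 12 and 18 held 367 and 215 of the 857 reads, and the log2 ratio was 4.23 without cell 12. The annotated pseudogene 2700099C18Rik had 621 reads in marker-positive cells and 0 in marker-negative cells, at least 76.8-fold higher in RPM over the marker-positive class. Marker-positive cells ran from 0 to 190 normalised counts of this pseudogene. Cell 18 held 300 of the 621 reads, and the log2 ratio of 4.73 was 3.96 without that cell. Kctd18 ran from 0 through 14.7 to 396 in marker-positive cells and from 0 through 0 to 8.84 in marker-negative cells. Zfyve19, which in human cells delays the final cut between daughter cells, ran from 0 through 22.9 to 272 in marker-positive cells and from 0 through 0 to 2.81 in marker-negative cells. The cell cycle gene list used here did not hold it, so it was counted as outside the cell cycle despite that role in division. Zfyve19 had a log2 ratio of 4.77 with both genes and of -0.55 with Mki67 alone.

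**Figure D2:**
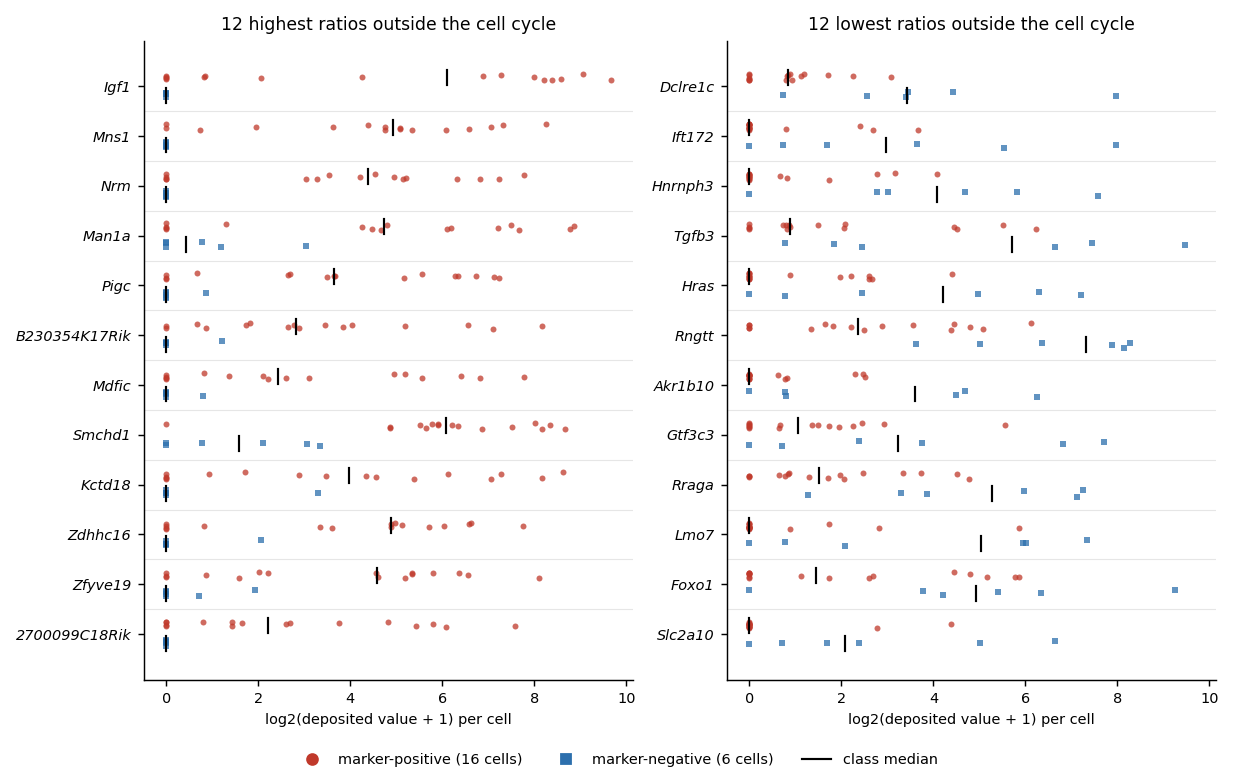
Normalised count of each named gene in every passage 1 cell as log2(value + 1), with marker-positive cells (red circles) above marker-negative cells (blue squares) and black ticks at class medians. In the left panel marker-positive cells spread from 0 to above 8 for genes such as Igf1 while marker-negative cells lie near 0; in the right panel 1 or 2 marker-negative cells lie far above the rest for genes such as Dclre1c and Foxo1.

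Among the 12 genes lowest in marker-positive cells, Rngtt, the mRNA capping enzyme (ENSMUSG00000028274, chromosome 4, 33310311 to 33502614), was the only one to reach 10 in all 6 marker-negative cells. It ran from 0 through 4.14 to 69.1 in marker-positive cells and from 11.3 through 158 to 308 in marker-negative cells. Of the marker-positive cells, 6 of 16 reached 10. The log2 ratio of Rngtt was -3.56 (-4.03 to -3.25 with each cell left out), and marker-positive cells were lower in 92.7% of pairs. Gtf3c3, a subunit of the transcription factor TFIIIC used by RNA polymerase III, ran from 0 through 1.07 to 46.0 in marker-positive cells and from 0 through 8.38 to 207 in marker-negative cells. Of the marker-negative cells, only cells 5, 11 and 17 reached 10 for Gtf3c3. Its log2 ratio of -3.40 was -2.32 without cell 11. Hnrnph3, an RNA-binding protein, had a median of 0 in marker-positive cells (highest 15.997) and 15.8 in marker-negative cells (highest 192). Of the marker-negative cells, only cells 5, 7 and 11 reached 10 for Hnrnph3. Its log2 ratio of -3.97 was -2.66 without cell 7, and -0.72 with a class threshold of 5.

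Among signalling genes, Rraga, the RagA GTPase that reports amino acids to mTORC1, ran from 0 through 1.86 to 26.3 in marker-positive cells and from 1.41 through 37.7 to 152 in marker-negative cells. Its log2 ratio was -3.31 (-3.66 to -2.84). Hras, a Ras GTPase, ran from 0 through 0 to 20.03 in marker-positive cells and from 0 through 17.5 to 146 in marker-negative cells. Of the marker-negative cells, only cells 3, 5 and 14 reached 10 for Hras. Its log2 ratio of -3.59 was -2.68 without cell 5. Foxo1, a transcription factor that favours quiescence, ran from 0 through 1.74 to 57.2 in marker-positive cells and from 0 through 29.4 to 610 in marker-negative cells. The 610 belonged to cell 5, and without that cell the log2 ratio of Foxo1 was -1.17, against -3.20 with it. Cell 5 was also one of the 2 marker-negative cells rich in S phase genes, with 30 of 43 at 10 or more. Without cells 5 and 17 the Foxo1 ratio was -1.04. Tgfb3, a transforming growth factor, ran from 0 through 0.833 to 73.9 in marker-positive cells and from 0.706 through 51.7 to 711 in marker-negative cells. Cell 5 again held the highest Tgfb3 value, and without it the log2 ratio was -2.27, against -3.81.

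The last 5 genes also rested on few cells. Dclre1c, the Artemis nuclease of DNA end joining, ran from 0 through 0.778 to 7.47 in marker-positive cells and from 0.650 through 9.73 to 250 in marker-negative cells. Cell 7 held the 250, and the log2 ratio of -4.48 was -2.17 without it. With a threshold of 5, which moved cells 7 and 17 to the positive class, the ratio of Dclre1c turned to 0.73. Ift172, a transport protein of cilia, reached 248.5 in marker-negative cell 5 and at most 11.6 in marker-positive cells. Lmo7, an actin-associated LIM protein, had a median of 0 in marker-positive cells (highest 57.0) and 31.9 in marker-negative cells (highest 160). Akr1b10, an aldo-keto reductase, reached at most 4.69 in marker-positive cells and 74.9 in marker-negative cells. Slc2a10, the sugar transporter GLUT10, whose loss causes arterial tortuosity in humans, reached 19.8 in marker-positive cells and 98.7 in marker-negative cells.

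Immediate early genes, which serum and stress switch on within minutes, had the lowest median of the 27 lists. Of 21 members kept, 19 had a log2 ratio below 0, and 4 were past the fold lower in marker-positive cells, with none higher. Over all 8144 genes outside the cell cycle, 4138 were above 0 and 1.5% were past the fold lower. The list median was -0.86 (-1.21 to -0.76 with each cell left out), beside 0.02 over all genes outside the cell cycle, and -0.69 without the cells with an endothelial hit. Fos, a subunit of AP-1, ran from 0 through 118 to 743 in marker-positive cells and from 0.737 through 637 to 1346 in marker-negative cells. Marker-negative cells 7, 11 and 5 had the highest Fos values, 1346, 1273 and 1057, above every marker-positive cell. Fosb ran from 0 through 2.23 to 85.1 in marker-positive cells and from 0 through 73.95 to 181 in marker-negative cells. Jun, the partner of Fos in AP-1, ran from 0 through 5.30 to 32.7 in marker-positive cells and from 0 through 27.7 to 58.9 in marker-negative cells. Dusp6, a phosphatase that turns ERK off, ran from 0 through 17.04 to 469 in marker-positive cells and from 0 through 212 to 433 in marker-negative cells.

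The classes overlapped for each of these genes, and the list level varied within both. Egr1, a zinc finger factor induced by ERK, had a log2 ratio of -1.03, which was -0.81 without cell 5, so it was not past the fold. Egr1 ran from 6.25 through 774 to 2862 in marker-positive cells and from 113 through 2518 to 3755 in marker-negative cells. Ier3 and Dusp1, named after their values were seen, were the members above 0, at 0.00 and 0.11. By the mean of log2(value + 1) over the 21 genes, marker-positive cell 20 ranked first of 22 at 7.05, followed by marker-negative cells 7 and 11 at 6.42 and 6.34. Marker-negative cell 17 ranked 21 of 22 at 1.71, above marker-positive cell 21 at 0.66.

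**Figure D3:**
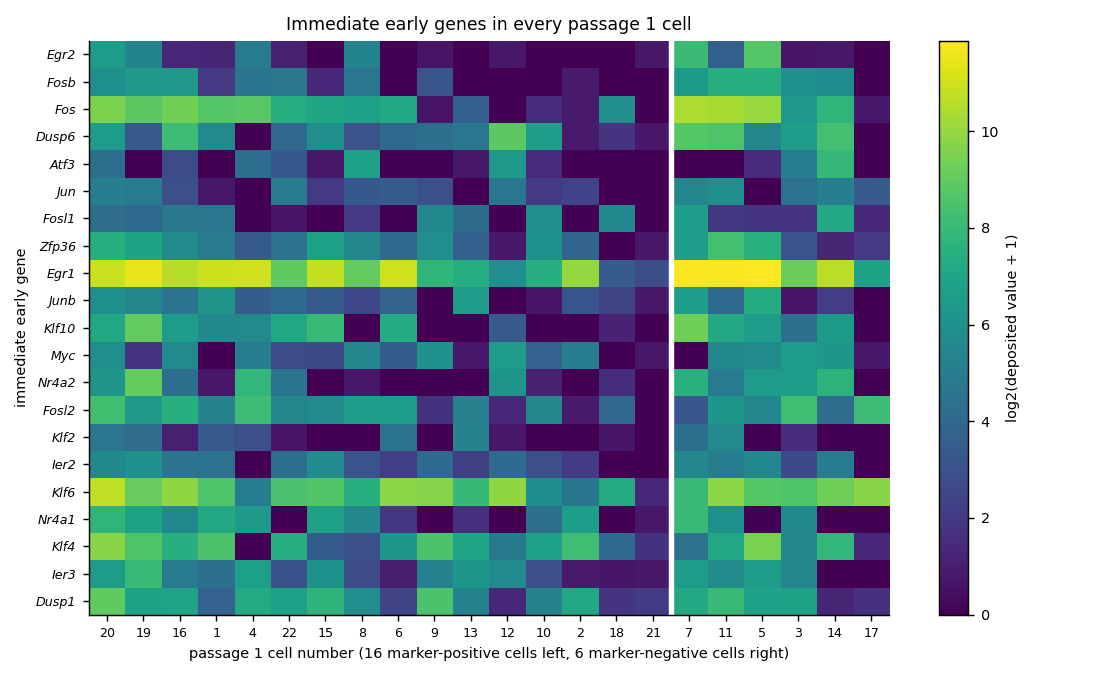
Heat map of 21 immediate early genes (rows, lowest log2 ratio at the top) in the 22 passage 1 cells (columns), as log2(normalised count + 1). The 16 marker-positive cells are left of the white line and the 6 marker-negative cells right of it, each sorted by list level; marker-negative cells 7, 11 and 5 are bright for Fos and Egr1, marker-negative cell 17 is dark, and marker-positive cells run from bright (20) to dark (21).

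Genes that govern entry into the cycle showed no shared direction. Of 18 genes kept in the cyclin D, CDK inhibitor and quiescence list, Foxo1 alone was past the fold, and the median was 0.00. Ccnd1, the serum-induced cyclin, averaged 101 ± 151 in marker-positive cells and 94.01 ± 150 in marker-negative cells (SD, n = 16 and 6). Cdkn1a, which encodes the CDK inhibitor p21, averaged 49.2 ± 63.2 in marker-positive cells and 25.3 ± 43.9 in marker-negative cells, and its log2 ratio of 0.93 was below the fold. The Cdkn1a ratio became 2.36 without marker-negative cell 3 and 3.90 from medians over cells. Of 21 genes kept in the p53 target list (median 0.07), 2 were past the fold higher and 1 lower. Over all genes kept outside the cell cycle, 3.4% were past the fold higher and 1.5% lower, so calls this few say nothing about either list. Zmat3, a p53-induced RNA-binding protein, ran from 1.43 through 25.8 to 156 in marker-positive cells and from 0 through 1.12 to 4.47 in marker-negative cells. Of the marker-positive cells, 13 lay above all marker-negative cells for Zmat3. Ccng1, cyclin G1, ran from 0.756 through 162 to 714 in marker-positive cells and from 0.706 through 35.8 to 267 in marker-negative cells. Sesn1, a sestrin that restrains mTORC1, was past the fold lower, with a median of 0 in marker-positive cells (highest 46.9) and 12.3 in marker-negative cells (highest 121).

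Smooth muscle and matrix genes showed no gene past the fold in either direction. Of 18 contractile genes kept, 14 were above 0, with a median log2 ratio of 0.23 (0.02 to 1.16 with each cell left out, the highest without marker-negative cell 17), and the median was -0.38 with Top2a alone. Acta2, smooth muscle actin, ran from 5.67 through 336 to 4826 in marker-positive cells and from 8.20 through 390 to 2843 in marker-negative cells. Tagln, an actin-binding protein of smooth muscle, had medians of 180 in marker-positive cells and 7.37 in marker-negative cells and was higher in marker-positive cells in 78.1% of pairs. Marker-negative cell 17, which had 9 of 10 smooth muscle markers at 10 or more, held 1161 for Tagln. The log2 ratio of Tagln was 1.00 with cell 17 and 4.81 without it. Reads of actin genes may be shared among near-identical copies, so Acta2 and Actb values are uncertain. Over 41 actomyosin and focal adhesion genes kept, the median was -0.04.

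Of 40 matrix genes kept, 27 were below 0, with a median of -0.30 (-0.33 to -0.13 with each cell left out) that was 0.25 with a threshold of 5. Fn1, fibronectin, averaged 1855 ± 1274 in marker-positive cells and 2534 ± 1135 in marker-negative cells (SD, n = 16 and 6). Bgn, the proteoglycan biglycan, averaged 2299 ± 850 in marker-positive cells and 2683 ± 1313 in marker-negative cells. Spp1, osteopontin, ran from 0 through 82.6 to 7336 in marker-positive cells and from 0 through 939.8 to 5108 in marker-negative cells, and its log2 ratio of -0.50 became 0.53 without cell 5. The osteogenic list had 6 of 7 genes kept below 0 and a median of -0.09.

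Single genes were past the fold among proteases, cytokines and growth factors; 1 or a few calls in a list of this size are about what the background shares of 3.4% higher and 1.5% lower give, and say nothing about the list. Adamts5, a metalloproteinase that cuts the proteoglycans aggrecan and versican, ran from 0 through 196 to 1936 in marker-positive cells and from 0 through 0 to 120 in marker-negative cells. Its log2 ratio was 4.01 (3.59 to 6.15), the only one of 28 protease and inhibitor genes kept past the fold, a share near the 3.4% of all genes outside the cell cycle. Adamts5 reached 10 in 11 of 12 marker-positive cells with a fibroblast hit and in 2 of the 4 without. Among marker-negative cells, 1 of 2 with a hit and 1 of 4 without reached 10. Nfkb1, a subunit of NF-kB, was the only one of 15 inflammatory and chemokine genes past the fold, with medians of 12.97 in marker-positive cells and 0 in marker-negative cells. Cxcl12, a chemokine made by stromal cells, averaged 728 ± 434 in marker-positive cells and 1353 ± 716 in marker-negative cells. It was lower in marker-positive cells in 77.1% of pairs, with a log2 ratio of -0.89. Of 35 growth factor and receptor genes kept, 23 were below 0 (median -0.49), with Igf1 past the fold higher and Tgfb3 lower. That median ran from -0.69 to -0.02 with each cell left out, the highest without marker-negative cell 5, and was 0.06 without the 25% of cells with the fewest genes. Lats2, a Hippo pathway kinase, was the only one of 19 SRF and YAP target genes past the fold, with medians of 109 in marker-positive cells and 24.3 in marker-negative cells. With Top2a alone the log2 ratio of Lats2 turned to -0.25, against 1.87 with both genes. None of 15 interferon and MHC class I genes kept was past the fold (median 0.04).

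Nucleotide and one-carbon synthesis had a median of 0.49 (0.33 to 0.60 with each cell left out, and 0.02 with Mki67 alone), with 20 of 29 genes kept above 0. Pfas, an enzyme of purine synthesis, was its only gene past the fold, near the background of 3.4%. It ran from 4.66 through 111 to 346 in marker-positive cells and from 2.55 through 34.8 to 86.95 in marker-negative cells. Gmps, which makes GMP, averaged 606 ± 323 in marker-positive cells and 359 ± 236 in marker-negative cells and was not past the fold. Lysosome and autophagy genes had a median of -0.56 (-0.61 to -0.28), with 21 of 26 kept below 0. Over all 8144 genes outside the cell cycle, 4138 were above 0. Lamp2, a lysosomal membrane protein, averaged 1081 ± 536 in marker-positive cells and 1746 ± 1277 in marker-negative cells. The only lysosome gene past the fold, the cholesterol transporter Npc1, was higher, with medians of 5.60 in marker-positive cells and 1.62 in marker-negative cells. That is 1 of 26 genes kept, near the background of 3.4% higher, so this call says nothing about the list.

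Ribosome biogenesis genes had a median of 0.07, with Nop56, C1qbp and Phb2 past the fold higher among 45 kept, beside 3.4% of all genes. Nop56, a protein of the box C/D particles that modify ribosomal RNA, averaged 113 ± 66.4 in marker-positive cells and 44.8 ± 38.4 in marker-negative cells (SD, n = 16 and 6). In the chaperone and proteasome list (median 0.11, 29 kept) the heat shock protein gene Hsph1 was past the fold higher, with medians of 73.97 in marker-positive cells and 7.86 in marker-negative cells. The log2 ratio of Hsph1 was 1.75 with both genes and 0.49 with Top2a alone. In the ER list (median -0.08, 37 kept) the collagen lysine hydroxylase Plod3 was lower, with medians of 26.4 in marker-positive cells and 140 in marker-negative cells. Srxn1, which repairs oxidised peroxiredoxins, was lower in the antioxidant list (median 0.11, 24 kept), with medians of 10.5 in marker-positive cells and 107 in marker-negative cells. No gene was past the fold in the glycolysis (median -0.17), cholesterol synthesis (-0.09), calcium handling (-0.47), ribosomal protein (0.03), nuclear oxidative phosphorylation (0.01) or mitochondrially encoded (-0.02) lists. Housekeeping genes had a median of 0.01 over 16 kept, with Tbp, the TATA-binding protein, past the fold higher at 57.0 ± 63.6 in marker-positive cells and 15.4 ± 23.5 in marker-negative cells (SD, n = 16 and 6). The log2 ratio of Tbp was 1.83 with both genes and 0.01 with Top2a alone. Single calls in these lists, beside 3.4% higher and 1.5% lower over all genes outside the cell cycle, say nothing about a list.

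**Figure D4:**
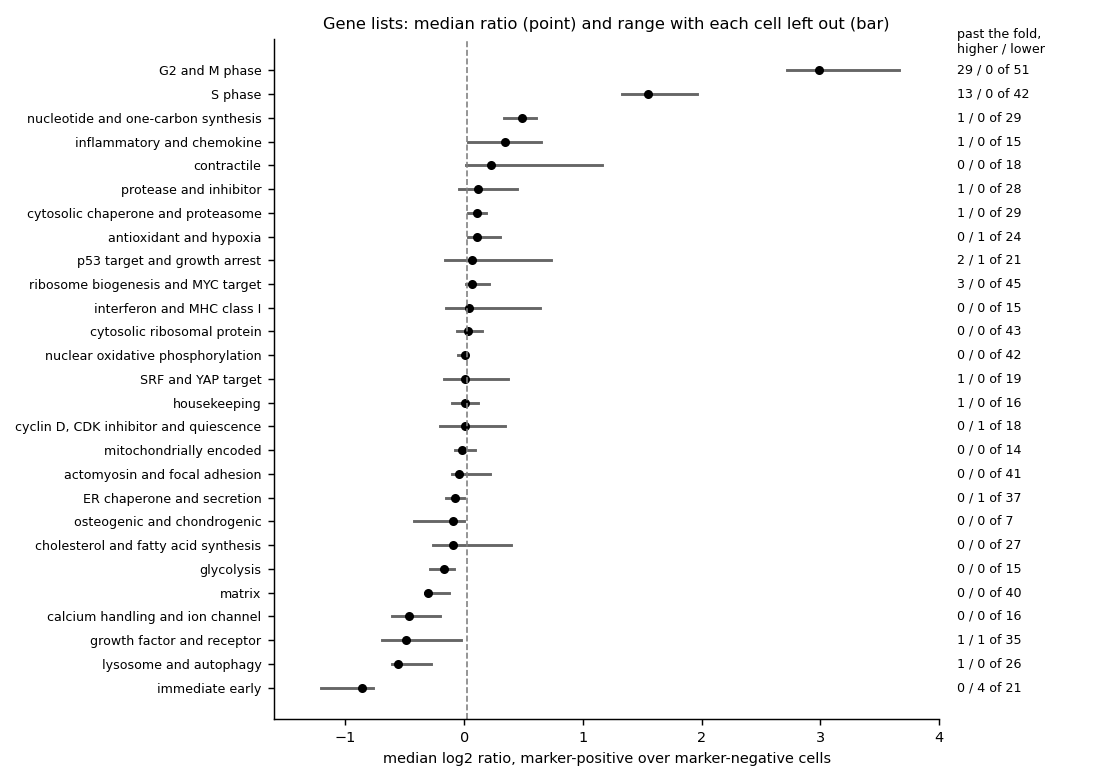
Median log2 ratio of each gene list (point), marker-positive over marker-negative cells, with the range of medians when each cell was left out (bar) and the median of all genes outside the cell cycle (dashed, 0.02). Counts at the right are genes past the fold higher and lower of those kept; the cell cycle lists lie far right at 1.55 and 2.99, and immediate early genes lie lowest at -0.86.

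The same division of passage 2 cells gave 10 marker-positive and 35 marker-negative cells, set beside passage 1 without a test. Marker-positive cells 30, 32 and 45 there passed by Top2a only, at 14.1, 10.6 and 17.9. They had 5, 9 and 4 S phase and 4, 8 and 10 G2 and M phase genes at 10 or more. Marker-positive cells 13 and 15 had 4163 and 4754 genes with a read. Marker-positive cell 8 and marker-negative cell 11 had an endothelial hit, so the classes may differ in make-up between passages. Of the 12 highest passage 1 genes, 9 passed the filter on low values at passage 2, and 4 of the 9 were higher in marker-positive cells there. Over all 6963 genes outside the cell cycle kept in both passages, 41.4% were higher in passage 2 marker-positive cells. Mns1 averaged 35.5 in marker-positive and 0.312 in marker-negative passage 2 cells, a log2 ratio of 4.80. Mdfic averaged 0.343 in marker-positive and 28.6 in marker-negative passage 2 cells, a log2 ratio of -4.46, the other direction from passage 1. Igf1 averaged 5.42 ± 14.97 in marker-positive and 8.06 ± 38.1 in marker-negative passage 2 cells (SD, n = 10 and 35), where 2 marker-positive and 7 marker-negative cells had a read, and it did not pass the filter. Of the 12 lowest genes, 10 passed the filter and 8 of them were lower in marker-positive passage 2 cells, where 58.6% of all genes were lower. Slc2a10 had a log2 ratio of -4.24 at passage 2, Dclre1c -3.05 and Rngtt -0.97. None of the 19 named genes that passed the filter at passage 2 was past the fold there. No share of all genes past the fold at passage 2 stands beside this count, so it does not show whether the differences recurred. Mns1 and Mdfic stayed at least 2-fold apart with each passage 2 cell left out (4.14 to 5.05 and -4.68 to -4.23). They fell short of the share of pairs set, with Mns1 higher in 49.1% of pairs and Mdfic lower in 46.6%. Over all genes past the fold at passage 1, 116 of 260 (44.6%) of the higher set and 78 of 116 (67.2%) of the lower set had the same direction at passage 2. Of the 21 immediate early genes, 16 were lower in marker-positive passage 2 cells (76.2%), with a median log2 ratio of -0.64, beside -0.21 over all genes kept.

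**Figure D5:**
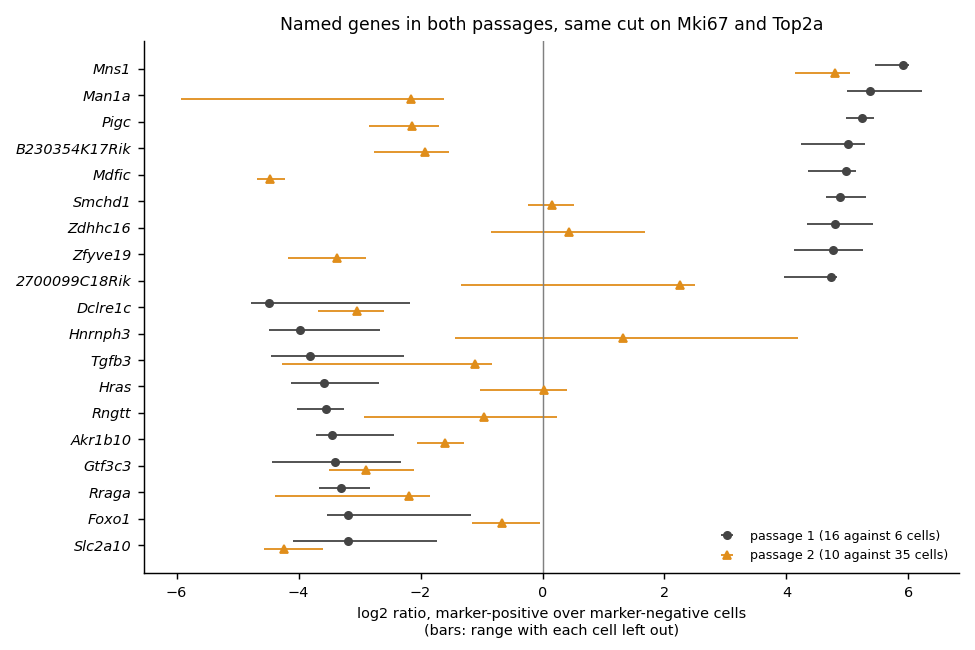
Log2 ratio, marker-positive over marker-negative cells, of the 19 named genes that passed the filter in both passages, at passage 1 (black circles) and passage 2 (orange triangles), with the range when each cell was left out (bars). Mns1 lies at 5.91 and 4.80, while Mdfic lies at 4.97 at passage 1 and -4.46 at passage 2.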

How the data were processed

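Single passage 1 and passage 2 cells were profiled by RNA sequencing. Per the submitters' processing notes, the tools were BWA, SAMtools, HTSeq and DESeq and the build GRCm38, with no versions given. The deposited signal values are gene counts that the authors scaled per cell. Dividing each passage 1 column by its smallest step gave whole reads within 0.001. How strand and multi-mapping reads were handled is not given in the sources used here. Names and positions come from GENCODE M21. The 8580 genes kept held 98.0% of passage 1 reads. Comparisons used Python 3.11.15, numpy 2.4.6, pandas 2.3.3 and scipy 1.17.1. The comparison code was also run on simulated cells with set fold changes, which checks the code and not how the ratios behave in these cells. No doublet caller was run. The traction force measurements were not analysed here.

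The text names the 12 genes with the highest and the 12 with the lowest log2 ratio past the fold outside the cell cycle, detected in 50% or more of the higher class and of the same direction without the cells with an endothelial hit. It also names, in each of 27 lists, the member with the highest mean and those past the fold, and set genes of the cell cycle, smooth muscle and matrix. The members and lists were chosen with earlier results of these data known. Cell numbers follow accession order. Intervals cover counting error only. Alternatives were pseudocounts of 0.1 and 10, filters, other scaling and summaries, other class thresholds, thinning to 500000 reads and each cell left out.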

Additional observations from a re-analysis of the deposited data

Results flagged for a closer look

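In 14 of the 20 named genes with a read in marker-negative cells, 1 of the 6 marker-negative cells lay far from the other 5: its gap to the nearest of them, as a share of the class range, was above Dixon's 95% critical value. Chance flags about 1 in 20 groups of independent, normally distributed values. That rate does not hold here, since the genes were picked for extreme ratios, many values are 0 and the 6 cells are 1 sample, so the flags describe the values and test nothing.

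Among genes higher in marker-positive cells, 5 had reads in 1 marker-negative cell only, which fixes the gap at 1.0 whatever the value. These were Pigc (cell 5, 1 read), B230354K17Rik (cell 3, 2 reads), Mdfic (cell 17, 1 read), Zdhhc16 (cell 7, 5 reads) and Kctd18 (cell 17, 12 reads), and they do not show an outlying cell. Man1a had a gap of 0.821 (cell 3, 11 reads) and Zfyve19 of 0.772 (cell 11, 4 reads). All of these values were below 10 normalised counts.

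Among genes lower in marker-positive cells, cell 5 stood apart for Foxo1 (0.868 of the range), Ift172 (0.818) and Tgfb3 (0.757), at 610, 248.5 and 711 normalised counts. Cell 7 stood apart for Dclre1c (0.920) and Hnrnph3 (0.711), at 250 and 192. Cell 14 stood apart for Akr1b10 (0.671) at 74.9, and cell 3 for Slc2a10 (0.684) at 98.7.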

How the results depend on the processing

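With 6 marker-negative cells, counts of genes past the fold depended on single cells and on the division itself. Against 277 higher and 122 lower genes, leaving out 1 cell gave 289 to 431 higher (most without cell 3) and 106 to 194 lower (most without cell 17). Of the original genes, 81.6% to 96.4% of the higher and 51.6% to 95.1% of the lower were shared. A pseudocount of 10 left 61 lower genes and the stricter filter 145 higher genes. Medians over cells gave 251 lower genes and means of log2 values 279. A threshold of 5 gave 204 lower genes, and Mki67 alone gave 472 higher and 47 lower. Top2a alone gave 269 and 101, but shared 39.4% of the higher and 24.6% of the lower genes. Leaving out cells with an endothelial hit gave 213 lower genes, and leaving out the 25% of cells with the fewest genes gave 668 higher, with an S phase median of 3.12. An alternative chosen after seeing the data, leaving out marker-negative cells 5 and 17, gave 446 higher, 196 lower and an S phase median of 3.24. The cause of these shifts was not tested. Leaving out 1 cell moved the S phase median from 1.55 to between 1.33 and 1.96 and the G2 and M phase median from 2.99 to between 2.72 and 3.66.

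Among named genes with at least a 2-fold ratio, the ratio turned round for Dclre1c with a threshold of 5 (0.73), Zfyve19 with Mki67 alone (-0.55), and Mns1 (-0.84), Zdhhc16 (-0.88) and Lats2 (-0.25) with Top2a alone. Named genes below 2-fold also changed sign in some alternatives, among them Myh11 (0.17, to -4.72 with Top2a alone), Rgs5 (0.51, to -1.45 with Top2a alone), Vcan (-0.26, to 3.34 with medians) and Cnn1 (-0.74, to 2.19 with a threshold of 5). The immediate early median stayed between -1.21 and -0.54 in all alternatives run. A threshold of 20 changed no class. No paired analysis was possible because the cell numbers are accession order and tie no cells together.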
